A study of Mus musculus with 2 samples.

Results

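The 5 miRNAs described here, mmu-miR-676-3p, mmu-miR-201-3p, mmu-miR-691, mmu-miR-759 and mmu-miR-292b-5p, were abundant to moderately abundant in exosomes of mouse mesenchymal stem cells (MSCs) and nearly absent from exosomes of NIH3T3 cells. Exosomes are small membrane vesicles secreted by cells. The 5 were chosen by name from 1214 miRNA entries, as miRNAs numbered under 1000 and outside the larger families, with at least 150 raw counts in the MSC library and at most 8 in the NIH3T3 library. Both thresholds are values of the comparison itself, so the difference between the libraries is a description of how the members were chosen and not a finding.

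One library was from exosomes of MSCs, connective tissue progenitors with osteogenic, chondrogenic and adipogenic capacity, of strain C57BL/6. The control library was from exosomes of NIH 3T3 cells, an immortalised fibroblast line of strain NIH Swiss. Per the labels' protocols, both cell types were kept for 72 hours in αMEM with 5% fetal bovine serum, a medium component that can itself carry vesicles. Each group held 1 library, so no test was made and no difference has a replicate check. Cell type, strain and library cannot be told apart. Fewer vesicles carrying a miRNA and fewer copies per vesicle cannot be told apart either.

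The MSC library held 1028186 miRNA counts and the NIH3T3 library 431007, with a median of 22.5 and 11 counts per miRNA entry. All 7 mesenchymal marker miRNAs checked, among them miR-199a-3p, miR-143-3p and miR-21a-5p, were well detected, with 828 to 172285 counts in MSC exosomes and 244 to 66489 in NIH3T3 exosomes. Levels are given as raw counts or as counts per 1000000 miRNA counts of the library (CPM). The log2 ratio sets MSC over NIH3T3 exosomes, with 1 CPM added, on the authors' deposited scale. Brackets hold 95% intervals, which cover counting error alone.

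A miRNA is cut from a hairpin in its precursor RNA, and 1 or both arms of the hairpin can give a mature strand. Bases 2 to 8 of the mature strand, the seed, pair with target mRNAs, and miRNAs that share a seed can share targets. Many miRNAs lie in introns of a host gene and may be made from its transcript, while others have their own promoter.

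The mature sequences of the 5 members are shown to compare their seeds, which stand in capitals. They are RefSeq's, in build GRCm38.p6, written 5′ to 3′, and each lay at the position that the deposited mm10 table gives.
miR-676-3p: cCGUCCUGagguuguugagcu
miR-201-3p: uGAACAGUgccuuucuguguagg
miR-691: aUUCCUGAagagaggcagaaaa
miR-759: gCAGAGUGcaaacaauuuugac
miR-292b-5p: aCUCAAAAccuggcggcacuuuu
The 5 seeds all differed from each other. The members were 21 to 23 bases long, began with C, U, A, G and A in the order shown, and had GC contents from 40.9% for miR-691 and miR-759 to 57.1% for miR-676-3p.

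The members' own levels spanned a wide range in MSC exosomes and a narrow one in NIH3T3 exosomes, where the limit of 8 counts set it. mmu-miR-676-3p had 3269 counts in MSC exosomes against 5 in NIH3T3 exosomes, or 3179 and 11.6 CPM. In the MSC library it was the 49th most abundant of the 1214 entries. At an equal CPM the NIH3T3 library would have held 1370 counts of it. The log2 ratio was 7.75 (6.64 to 9.49), a 216-fold difference.

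The other X-linked member, mmu-miR-201-3p, had 721 CPM in MSC exosomes against 18.6 CPM in NIH3T3 exosomes, where it had 8 counts. Its deposited log2 values were 8.92 for MSC and 3.88 for NIH3T3 exosomes. In log2 units the ratio was 4.98 (4.06 to 6.26), and its 8 counts were the most that the choice of members allowed. The NIH3T3 library would have held 311 counts at an equal CPM.

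The remaining 3 members were near the lower limit in MSC exosomes and at 0 or 1 count in NIH3T3 exosomes. mmu-miR-691 had 188 counts in MSC exosomes against 0 in NIH3T3 exosomes, or 183 and 0 CPM. A count of 0 allows up to 3 counts, or 6.96 CPM in the NIH3T3 library, so against that limit miR-691 was at least 22.3-fold higher in MSC exosomes on the deposited scale. The counting interval of its log2 ratio, as used for the other members, began lower, at 4.17. In all, 18 miRNA entries had 0 counts in the NIH3T3 library and 0 entries did in the MSC library, in a table whose entries reach 10 counts in at least 1 library.

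For mmu-miR-759, MSC exosomes gave 228 counts and NIH3T3 exosomes 1, or 222 and 2.32 CPM, with a log2 ratio of 5.87 (3.85 to 11.65). For mmu-miR-292b-5p, MSC exosomes gave 160 counts and NIH3T3 exosomes 1, or 156 and 2.32 CPM, with a log2 ratio of 5.36 (3.33 to 11.14). Their intervals are wide because they rest on a single count, and they overlap those of all other members. The intervals of miR-676-3p and miR-201-3p did not overlap. At an equal CPM the NIH3T3 library would have held 95.6 counts of miR-759, 78.8 of miR-691 and 67.1 of miR-292b-5p.

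**Figure D1:**
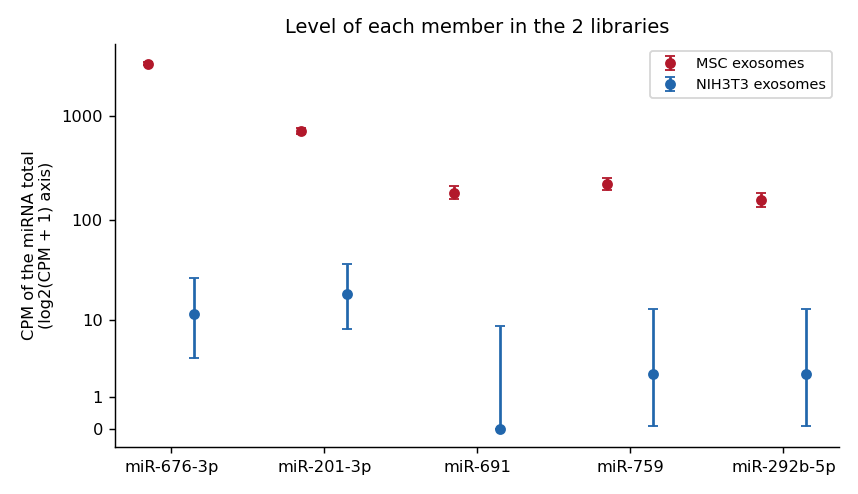
Level of each member in MSC exosomes (red) and NIH3T3 exosomes (blue), in CPM of the miRNA total on a log2(CPM + 1) axis; bars are exact 95% Poisson intervals of each single library's count. The MSC levels run from 156 CPM for miR-292b-5p to 3179 CPM for miR-676-3p, and the NIH3T3 levels from 0 to 18.6 CPM.

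Together the 5 members had 4586 counts in MSC exosomes against 15 in NIH3T3 exosomes, or 4460 and 34.8 CPM. miR-676-3p alone gave 71.3% of the MSC sum. In the NIH3T3 library all 5 lay below the median entry, which had 11 counts. All 5 were higher in MSC exosomes by 2-fold or more. Of the 318 miRNAs that reached 100 CPM in at least 1 library, 34.0% were, and nothing can be read from that contrast because the members were chosen by it. All 5 reached 100 CPM, and did so through the MSC library alone. Their median log2 ratio was 5.36 with miR-691 at 4.48, its lower bound against 3 counts, or at any lower value, beside 0.28 for the 318 miRNAs. Values of miR-691 above that bound could raise the median to at most 5.87, the ratio of miR-759.

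The 5 names do not exhaust the count thresholds. Of the 1214 entries, 26 had at least 150 MSC counts and at most 8 NIH3T3 counts, which is 2.14%. Of the 21 that are not members, 13 are numbered 1000 or above and 8 are numbered below. Not all of these 8 were left out for belonging to a larger family. miR-147-3p, miR-202-3p, miR-547-3p and miR-551b-3p met the same description as the members without being among the names chosen.

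Those 8 include miR-196b-5p of the Hox clusters, the gonad-expressed miR-202-3p, and miR-500-5p. miR-196b-5p had 3124 MSC counts and 1 NIH3T3 count, miR-202-3p had 591 and 7, and miR-500-5p had 168 and 0. The other 5 of them had 169 to 280 MSC counts and 3 to 8 NIH3T3 counts. They were miR-24-1-5p with 280 and 3 counts, miR-147-3p with 222 and 8, miR-296-5p with 178 and 6, miR-547-3p with 173 and 5, and miR-551b-3p with 169 and 6.

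The 13 later-numbered entries had 159 to 819 MSC counts and 1 to 7 NIH3T3 counts, and they ran from miR-3070-5p at 819 and 7 counts to miR-8092 at 159 and 4. Between them lay miR-6537-5p, miR-6999-3p, miR-7044-5p, miR-5135, miR-7689-3p, miR-6950-5p, miR-6336, miR-7578, miR-7083-3p, miR-6903-5p and miR-3090-3p. Just outside the NIH3T3 limit were miR-344d-3p with 266 and 9 counts and miR-7235-5p with 178 and 9. Just outside the MSC limit were miR-1955-3p with 145 and 3 counts and miR-7666-5p with 141 and 6.

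**Figure D2:**
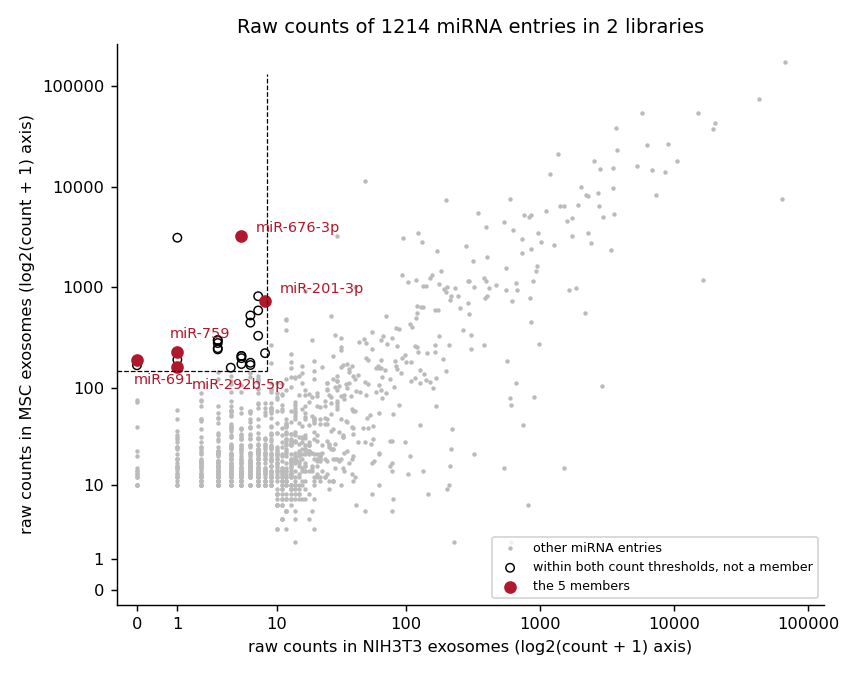
Raw counts of 1214 miRNA entries in MSC exosomes (vertical) against NIH3T3 exosomes (horizontal), both on log2(count + 1) axes; red points are the 5 members, open circles the 21 other entries within the thresholds of 150 and 8 counts (dashed lines). The members lie among the open circles at the left edge, and miR-676-3p at 3269 counts sits beside the circle of miR-196b-5p at 3124 counts.

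By level in both libraries, the non-member nearest to each member was found as the shortest distance in log2 units over the 2 libraries. It was miR-196b-5p for miR-676-3p, at a distance of 1.95, and miR-3070-5p for miR-201-3p, at 0.23. miR-500-5p was nearest to miR-691, at 0.16, and miR-3090-3p, with 191 MSC counts and 1 NIH3T3 count, was nearest to both miR-759 and miR-292b-5p, at 0.25 each.

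The hairpins of 4 members are shown with the mature strand in capitals, to show which arm each comes from. They are RefSeq's, in build GRCm38.p6. That of miR-292b-5p is not shown.
miR-676 hairpin: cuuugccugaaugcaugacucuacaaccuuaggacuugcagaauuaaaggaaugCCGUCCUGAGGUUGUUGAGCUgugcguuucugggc
miR-201 hairpin: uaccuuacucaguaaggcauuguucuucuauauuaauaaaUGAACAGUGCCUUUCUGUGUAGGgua
miR-691 hairpin: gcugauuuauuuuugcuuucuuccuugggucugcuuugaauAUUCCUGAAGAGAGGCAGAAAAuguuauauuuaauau
miR-759 hairpin: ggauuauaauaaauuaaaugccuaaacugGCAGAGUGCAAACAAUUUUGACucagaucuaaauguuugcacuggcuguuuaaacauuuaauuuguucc
The mature strand lies on the 3′ side of the hairpin for miR-676-3p, miR-201-3p and miR-691, and on the 5′ side for miR-759 and miR-292b-5p.

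The choice of members did not use the opposite arms, and these were rare in both libraries. For 2 of the 5 hairpins an opposite arm was listed. miR-676-5p had 31 counts in MSC exosomes against 6 in NIH3T3 exosomes, with a log2 ratio of 0.84 (-0.40 to 2.43). miR-201-5p had 16 counts in MSC exosomes against 3 in NIH3T3 exosomes, with a log2 ratio of 0.84 (-0.88 to 3.35). Neither passed 2-fold, and both intervals include no difference as well as differences of more than 4-fold (log2 of 2). Without a floor on the level, 23.8% of all 1214 entries were higher in MSC exosomes by 2-fold or more and 25.5% were lower.

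The 3p arm of miR-676 therefore made up 99.1% of the hairpin's 3300 counts in MSC exosomes (98.7 to 99.3) and 45.5% of its 11 counts in NIH3T3 exosomes (21.3 to 72.0). For miR-201 the 3p arm made up 97.9% of 757 counts in MSC exosomes (96.6 to 98.7) and 72.7% of 11 counts in NIH3T3 exosomes (43.4 to 90.3). The 3p share was thus 53.6 percentage points higher in MSC exosomes for miR-676 and 25.2 points higher for miR-201. These differences follow in part from choosing the members for low NIH3T3 counts. Both arms were listed for 326 hairpins, and most of these had at least 10 counts in each library. Those that did had a median absolute difference of 12.6 points. A minority of them, 42 hairpins with miR-676 among them, differed by more than 40 points. A shift of that size was thus not particular to miR-676, but most hairpins shifted less. By absolute difference among the same hairpins, miR-676 ranked 16th and miR-201 82nd.

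Of the members' hosts, Eda and Robo2 hold miRNAs in introns. miR-676-3p lies at chrX:100381151-100381171 on the plus strand, in an intron of Eda, which encodes ectodysplasin A, a ligand of the TNF family needed for hair, teeth and glands. The miRNA and Eda share the strand, and the nearest annotated Eda exon begins after 283 bases. miR-691 lies at chr16:74342005-74342026 on the minus strand, in an intron of Robo2, a receptor for Slit proteins in axon guidance, on the same strand as the gene. The nearest Robo2 exon is 7768 bases away. Host transcripts were not measured in these libraries.

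Both miR-201-3p and miR-759 lie between genes. miR-201-3p is at chrX:67988099-67988121 on the minus strand, and the nearest protein-coding gene in the annotation, 4933436I01Rik, is 66648 bases away. miR-759 is at chr14:79738460-79738481 on the plus strand, 28293 bases from Pcdh8, which encodes a protocadherin. Neither had a host gene in the annotation used here, and miR-759 had no other listed miRNA within 50 kb.

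miR-201-3p had a close neighbour. miR-547-3p, at chrX:67988383-67988403 on the same strand, lies 261 bases away, and its mature strand is shown to compare it with that of miR-201-3p.
miR-547-3p: cUUGGUACaucuuugagugag
The longest run of bases shared by the 2 was 4, so the seeds differ and the counts are not those of 1 sequence. miR-547-3p had 173 counts in MSC exosomes against 5 in NIH3T3 exosomes, or 168 and 11.6 CPM, with a log2 ratio of 3.52 (2.37 to 5.26). It meets the same count thresholds as the members without being one.

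miR-201 and miR-547 belong to a group of X-linked miRNAs known for expression in the testis. Of that group, 15 entries were listed, and 2 of them, miR-201-3p and miR-547-3p, reached 100 CPM. The other entries of the group apart from miR-201-5p, 12 in all, lie between 66776794 and 66832587 on chromosome X, 1156 kb away. They had 3 to 60 MSC counts and 1 to 13 NIH3T3 counts, and none reached 100 CPM.

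Of these 12, 5 passed 2-fold upwards in MSC exosomes, 4 passed it downwards and 3 were within it, with a median log2 ratio of 0.52. Over all 1214 entries without a floor, 23.8% were higher, 25.5% were lower and the median was -0.04. The highest in MSC exosomes was miR-471-3p, with 60 MSC counts and 1 NIH3T3 count (log2 ratio 3.96, 1.88 to 9.74). Their summed level was 198 CPM in MSC exosomes and 146 CPM in NIH3T3 exosomes, from 204 and 63 counts. With miR-202-3p added, 16 testis-associated entries were listed, with 1678 CPM in MSC exosomes and 200 CPM in NIH3T3 exosomes. miR-201-3p gave 721 CPM of the MSC sum and miR-202-3p 575 CPM. Both lie within the count thresholds by which the members were chosen, as does miR-547-3p, so nothing can be read from the gap. Without miR-201-3p the sums were 957 CPM in MSC exosomes and 181 CPM in NIH3T3 exosomes. Whether germ cells had a part in these levels was not tested.

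Since 2 of the 5 members are X-linked, the other entries of chromosome X were compared. Without the 2 members, 28 entries of the chromosome reached 100 CPM. Of these, 8 passed 2-fold upwards in MSC exosomes, 3 passed it downwards and 17 were within it, with a median log2 ratio of 0.27. The share higher was 28.6%, beside 34.0% of all miRNAs at that level, of which 26.1% were lower. In sum the 98 non-member entries of the chromosome, without a floor, had 95696 CPM in MSC exosomes and 99887 CPM in NIH3T3 exosomes. These include entries that also lie on other chromosomes, whose counts cannot be assigned to chromosome X alone. One of them, let-7f-5p, also on chromosome 13, had 17385 CPM in MSC exosomes and 24311 CPM in NIH3T3 exosomes.

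miR-292b-5p lies at chr7:3219237-3219259 on the minus strand, and its values are uncertain for a reason of position. It falls within the hairpin of miR-292a, which is transcribed from the plus strand as part of the miR-290 to miR-295 cluster, a cluster known for high expression in embryonic stem cells. All 23 bases of miR-292b-5p are complementary to a stretch of that hairpin, which is shown for comparison.
miR-292a hairpin, the stretch opposite miR-292b-5p: aaaagugccgccagguuuugagu
Whether the authors' counting used the strand is not given in the sources used here, and without it reads of the 2 strands cannot be told apart. No entry of miR-292a was among those analysed here. miR-292b-5p also lies in the untranslated part of an exon of Nlrp12, a gene of innate immunity on the same strand, so fragments of that mRNA would carry the same sequence.

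Of the miR-290 to miR-295 cluster, 6 entries were listed, and miR-292b-5p was the 1 that reached 100 CPM. Without it, the 5 entries had 11 to 37 MSC counts and 1 to 14 NIH3T3 counts. Of these 5, miR-290a-5p had 37 MSC counts and 1 NIH3T3 count (log2 ratio 3.28, 1.15 to 9.06). miR-293-5p had 12 and 1 (1.74, -0.66 to 7.51). The other 3, miR-290a-3p, miR-294-3p and miR-294-5p, were within 2-fold, at -0.42, -0.78 and -0.25. The summed level of the 5 was 100 CPM in MSC exosomes and 67.3 CPM in NIH3T3 exosomes, so the cluster's other entries were scarce in both.

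The pluripotency markers listed beside that cluster held 1 further entry, miR-367-3p, with 10 MSC counts and 5 NIH3T3 counts (log2 ratio -0.45). That list left out the 5p arms of miR-302, which were detected. miR-302b-5p and miR-302a-5p passed 2-fold upwards in MSC exosomes, with log2 ratios of 1.36 and 1.94. They rest on 6 and 1 NIH3T3 counts, and neither reached 100 CPM. The interval of miR-302a-5p includes no difference, while that of miR-302b-5p does not. Whether pluripotent cells had a part in the level of miR-292b-5p was not tested. Sharing of seeds was also limited. Among the RefSeq mature sequences, 1 other shared a seed with a member: miR-294-5p, which has the seed of miR-292b-5p. It had 14 MSC counts and 6 NIH3T3 counts (-0.25, -1.74 to 1.40).
miR-294-5p: aCUCAAAAuggaggcccuaucu
The other 4 seeds, as capitalised in the first set of sequences, had no second carrier in the RefSeq table. That table did not hold every listed miRNA by name, and those it lacked were not compared.

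**Figure D3:**
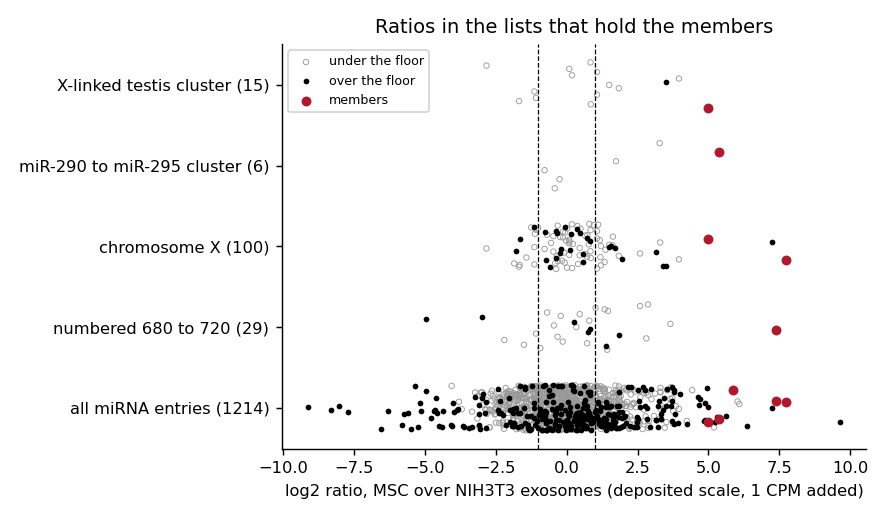
Log2 ratio of MSC over NIH3T3 exosomes for the entries of each list, on the deposited scale with 1 CPM added; red points are members, black points other entries that reach 100 CPM, open points entries that do not, and dashed lines mark 2-fold. Vertical scatter within a row has no meaning, and entries at 0 in NIH3T3 exosomes, such as miR-691, are drawn at values that depend on the added constant. The members lie right of nearly all other points of their lists, which follows from how they were chosen.

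Near-identical copies were searched for, since they could share reads. In annotated mouse transcripts, runs of 18 bases of miR-676-3p, miR-201-3p, miR-691 and miR-759 were found in their own hairpins and in 0 other genes on either strand. miR-292b-5p was found in 1 other gene on the same strand, Nlrp12, and in 1 on the opposite strand, the miR-292a gene. Among the mature sequences that RefSeq held, the longest shared run was 8 bases for miR-759 and 9 for miR-676-3p and miR-201-3p. It was 11 for miR-292b-5p and 13 for miR-691. The partner of miR-691, miR-7215-3p, had 4 MSC counts and 11 NIH3T3 counts, the opposite direction. Of the partners of miR-201-3p, 3 were listed: miR-6999-3p, one of the 21 entries above, with 447 and 6 counts, let-7d-3p with 186 and 83, and miR-3092-5p with 14 and 7.

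The hairpins differed in predicted stability. Their minimum free energy, the energy of the most stable predicted fold, was set beside that of 1005 RefSeq mouse hairpins per base of length, whose median was -0.41 kcal/mol per base. miR-201 and miR-676, at -0.49 and -0.47 kcal/mol per base, were more stable than 81.4% and 75.6% of hairpins. miR-759 and miR-292b, at -0.32 and -0.31, were more stable than 17.4% and 14.8%. The hairpin of miR-691, at -0.20, was more stable than 5 of the 1005.

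In absolute terms the predicted energy was -41.5 kcal/mol for the 89 bases of the miR-676 hairpin and -15.6 kcal/mol for the 78 bases of the miR-691 hairpin. In the predicted folds 18 of 21 bases of mature miR-676-3p were paired, 20 of 23 of miR-201-3p, 18 of 22 of miR-691, 17 of 22 of miR-759 and 19 of 23 of miR-292b-5p. The mature strands thus had 17 to 20 paired bases each, while the energies of the folds lay far apart.

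**Figure D4:**
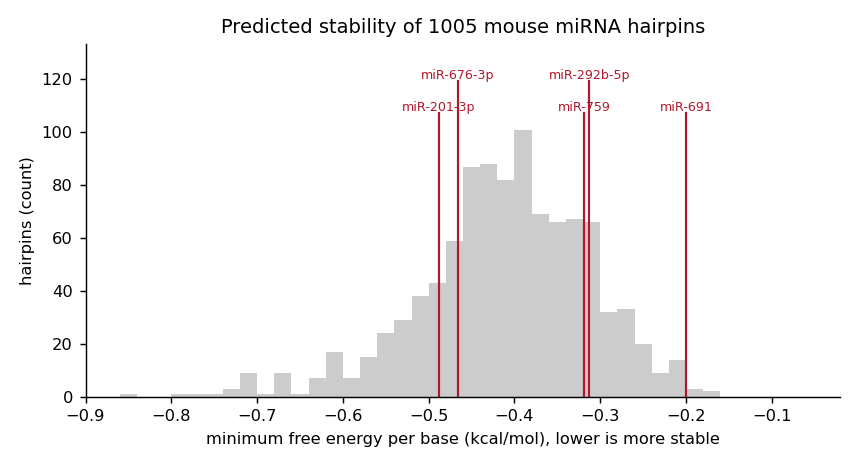
Minimum free energy per base, in kcal/mol, predicted for 1005 mouse miRNA hairpins (grey histogram of hairpin counts), with the hairpins of the members as red lines. The lines of miR-201-3p and miR-676-3p lie left of the median of -0.41, those of miR-759 and miR-292b-5p right of it, and that of miR-691 near the right end at -0.20.

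miR-691 was also set beside entries with nearby numbers, 680 to 720. Of 29 such entries, 8 reached 100 CPM, and without miR-691 there were 7. Of these 7, 2 passed 2-fold upwards in MSC exosomes, miR-708-3p (165 and 16 counts, 1.85) and miR-683 (148 and 20 counts, 1.38). A further 2 were lower, miR-712-5p (81 and 907 counts, -4.96) and miR-698-3p (21 and 62 counts, -2.99), and 3 were neither. The share higher was 28.6%, beside 34.0% of all miRNAs at that level. In the NIH3T3 library, miR-696 was the other entry of this list at 0, with 13 counts in MSC exosomes.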

How the data were processed

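Per the file headers, the deposited table held raw counts and normalized values for 1374 small RNA entries in 2 libraries, and 160 piRNA entries were set aside here. Per the labels' protocols, the QIAseq miRNA kit was used for the libraries. The genome was mm10 per the submitters' processing notes. Not given in the sources used here are the aligner, the counter and any use of molecular identifiers. The authors' deposited log2 values equalled the log2 of the count times 0.655 for MSC and 1.84 for NIH3T3 exosomes, which was checked over all entries above 0.

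Ratios were taken on that scale with 1 CPM added (0.734, from the mean miRNA total of both libraries). A miRNA was called at 2-fold or more, mostly among those at 100 CPM or more in at least 1 library (103 MSC or 43.1 NIH3T3 counts). Ratio intervals are exact conditional Clopper-Pearson intervals of the counts without the added constant, shares have Wilson intervals, and both hold counting error alone. PCR copies among reads would make them too narrow.

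Sequences came from RefSeq (GRCm38.p6). Of 1011 entries with 1 position and a RefSeq sequence, 1007 had the same coordinates there. Genes came from GENCODE M21. Hairpins were folded with RNAfold 2.7.2, with default settings. The analysis used Python 3.11.15, pandas 2.3.3 and SciPy 1.17.1.

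The miRNAs named are the 5 members, entries of the same hairpin, within 50 kb or with the same seed, the nearest in level, all others within the count thresholds, and the 2 nearest outside each. Others, such as miR-471-3p, miR-7215-3p, the 5p arms of miR-302 and entries numbered 680 to 720, were named after their values were seen. The members and lists were chosen with earlier results of these data known. Alternatives were other scalings, added constants, floors and thresholds, and leaving out entries with several positions.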

Additional observations from a re-analysis of the deposited data

How the results depend on the processing

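Depth limits these results, since 4 of the 5 members rest on 0 to 5 NIH3T3 counts and 1 on 8. Over other scalings and added constants of 0.5 and 10 CPM, the log2 ratio ran from 7.02 to 7.98 for miR-676-3p, 4.48 to 5.21 for miR-201-3p, 4.09 to 6.08 for miR-759 and 3.61 to 5.58 for miR-292b-5p. The lower bound of miR-691 ran from 4.20 to 4.72 over the scalings. These and the opposite arms stayed within their counting intervals. The median log2 ratio of the 318 miRNAs was 0.28, and 0.51 scaled by the miRNA total, 0.50 by all entries and 0.11 without the 10 most abundant miRNAs.

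The floor moved counts by its construction, since it sets how many entries are compared. At floors of 10 CPM, 1000 CPM and none, the miRNAs 2-fold or more higher in MSC exosomes numbered 282 of 1181, 34 of 105 and 289 of 1214. At 100 CPM they numbered 108 of 318. In the same order they were 6 of 14, 0 of 0 and 7 of 15, against 2 of 2, in the X-linked testis group. In the miR-290 to miR-295 cluster they were 3 of 6, 0 of 0 and 3 of 6, against 1 of 1. Chromosome X had 26 of 97, 5 of 10 and 27 of 100, against 10 of 30. Among entries numbered 680 to 720 they were 11 of 28, 0 of 1 and 11 of 29, against 3 of 8. Of the 26 entries within both count thresholds, 11 were left with both thresholds in CPM (3.35 NIH3T3 counts), 9 with at least 300 MSC counts and 12 with at most 4 NIH3T3 counts. miR-676-3p and miR-201-3p were not left in CPM or at 4 counts. miR-691, miR-759 and miR-292b-5p were not left at 300 counts. Looser limits of 100 MSC counts or 16 NIH3T3 counts gave 39 and 35 entries. No paired analysis was possible because each group held 1 library.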
